A study of Mus musculus with 12 samples.

Results

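Cdx1, Cdx2 and Cdx4 are the 3 caudal-type homeobox genes of the mouse, and their counts are described here at each time of RAF activation in embryonic stem cells. They were found by symbol, as 3 of the 25897 gene symbols in the deposited count table. They were chosen by their counts in these same 12 libraries, which were already known, so those counts are given as a description and carry no test. The cells were E14tg2a, an embryonic stem cell line from 129SV mice, with a construct named cRAF-ERT2, in 3 clones called a, b and c. In such a fusion a RAF kinase is joined to a mutant oestrogen receptor domain and is switched on by 4-hydroxytamoxifen (4OHT), so that MEK and ERK are phosphorylated downstream. The groups were untreated cells and cells after 1, 2 and 4 h of 250 nM 4OHT, with 1 library per clone at each time, which gave 12 libraries in 4 groups of 3. All groups, the untreated one included, were grown in serum, LIF and 2 µM Chir99021, a GSK3 inhibitor. They were moved 24 h before the experiment to serum, LIF and 250 nM PD173074, an FGF receptor inhibitor, and ethynyl uridine was given at 5 mM over the last 15 min of culture. Each clone is a single line carrying the construct, no carrier-treated group is among these samples, and the RNA was total RNA depleted of ribosomal RNA.

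CDX proteins are homeodomain transcription factors related to Drosophila caudal. In the mouse embryo they act in the posterior body, where they activate Hox genes and sustain the axial progenitors, and they respond to Wnt, FGF and retinoic acid signals. Cdx2 is also needed for the trophectoderm, the first extraembryonic lineage, where it and Pou5f1 (Oct4) repress each other, and Cdx1 and Cdx2 specify intestinal epithelium in later life. Cdx2 lies in the ParaHox cluster with Gsx1 and Pdx1, a cluster regarded as an ancient sister of the Hox clusters.

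Total counts were 24213641 to 31435301 per library, so that 1 count was worth 0.0308 to 0.0408 CPM, counts scaled to a common library total. Levels are given as CPM scaled by TMM (trimmed mean of M values), which sets libraries on a common scale. The 12 embryonic stem cell markers summed to 5560 to 6220 CPM at 4 h and 7180 to 7920 CPM in untreated cells, and none was at 0. At 4 h Pou5f1 (log2 change 0.60 ± 0.10, edgeR adjusted p = 0.0019) and Utf1 were called higher, and Nanog, Klf4, Tfcp2l1, Tdgf1 and Fgf4 lower. All 12 were tested, and 18.0% of all genes tested were called higher and 15.1% lower. With clone as a block in the model 3 markers were higher and 6 lower, beside 26.2% and 25.7% of all genes tested. Of 10 endoderm markers summed levels were 8.75 to 20.4 CPM at 4 h and 8.64 to 20.7 CPM in untreated cells, where Afp was at 0. The sums for 10 fibroblast markers were 14.3 to 28.5 CPM at 4 h and 7.0 to 7.78 CPM in untreated cells, where Postn was at 0. Much of the 4 h sum fell on 1 marker, as the highest averaged 17.0 CPM, against 3.42 CPM for the highest untreated. Only 3 of these markers were tested, and at 4 h Col1a1 and Thy1 were called higher and Pdgfrb lower. The part of these shifts in the caudal genes was not tested. In bulk libraries more cells that express a gene and more RNA per cell cannot be told apart.

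Cdx2 was close to silent in untreated cells and was the caudal gene with the highest level per length at 4 h. In clones a, b and c it was counted 2, 0 and 1 times untreated, then 3, 2 and 2 times after 1 h. After 2 h the counts were 28, 75 and 53, and after 4 h they were 120, 968 and 371. Each 2 h library lay above every earlier library, and each 4 h library lay above every 2 h library. The mean level was 0.0321 ± 0.0309 CPM in untreated cells, 0.0897 ± 0.0285 CPM at 1 h, 1.84 ± 0.748 CPM at 2 h and 17.4 ± 14.3 CPM at 4 h (SD, n = 3 clones). Without clone b the 4 h mean was 9.64 CPM.

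Ratios of summed scaled counts give the size of these steps, with exact 95% intervals that cover counting error only. The ratio of 1 h to untreated was 2.55 with an interval of 0.582 to 15.3, so a difference at 1 h was not detectable at this depth. The ratio of 2 h to 1 h was 21.1 (10 to 53.4), and that of 4 h to 2 h was 9.65 (8.18 to 11.5). Over untreated cells the ratio was 53.9 (18.1 to 264) at 2 h and 520 (178 to 2530) at 4 h. These last intervals are wide because they rest on 3 untreated counts in all.

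**Figure D1:**
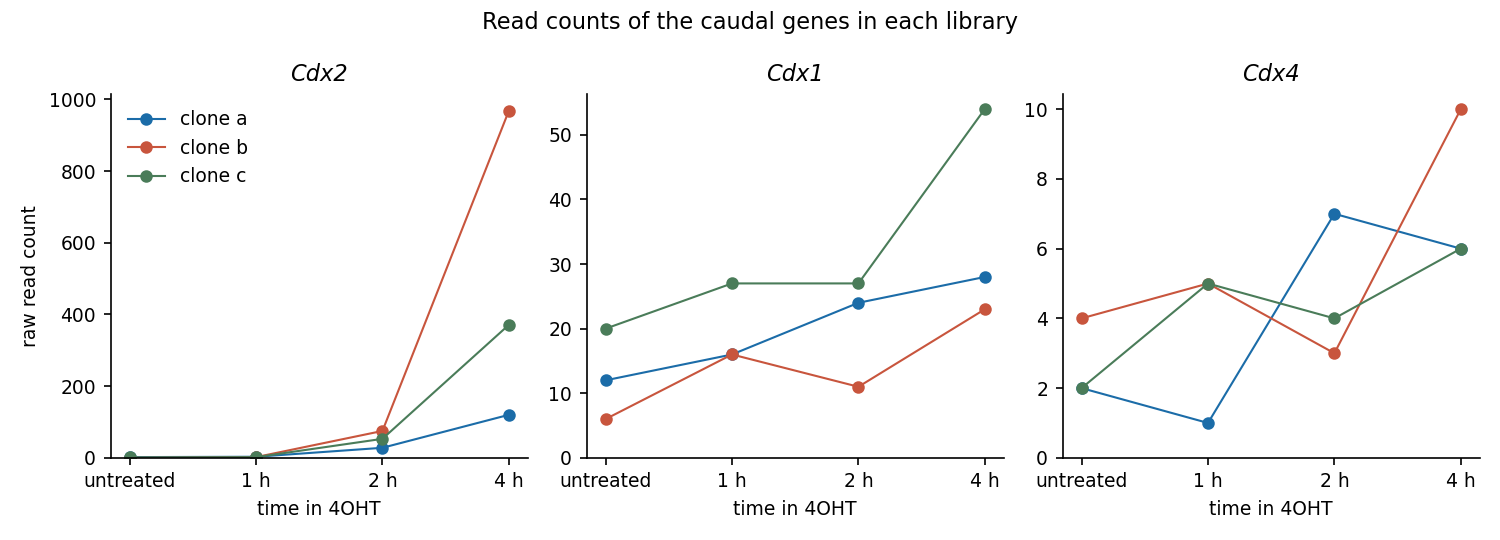
Raw counts of Cdx1, Cdx2 and Cdx4 in each of the 12 libraries, by hours of 4OHT, with a line for each clone. Cdx2 stood at 0 to 2 counts untreated and at 120 to 968 counts at 4 h, while Cdx4 did not exceed 10 counts in any library.

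The sequence just upstream of Cdx2 is shown with that of Cdx4, since both genes had few counts in untreated cells and only Cdx2 reached high counts. Each window is the 250 bases before the RefSeq start of the gene (GRCm38.p6), printed 5′ to 3′ on the strand of the gene. The Cdx2 window is chr5:147307250-147307499 on the minus strand, with 55.2% GC, and the Cdx4 window is chrX:103321148-103321397 on the plus strand, with 48.4% GC. In GENCODE M21 Cdx2 begins at 147307270, so the last bases of its window lie inside the gene by that annotation. Distances below are from the RefSeq start. Capitals mark the octamer ATGCAAAT, the letters bound by POU factors such as Oct4.
Cdx2: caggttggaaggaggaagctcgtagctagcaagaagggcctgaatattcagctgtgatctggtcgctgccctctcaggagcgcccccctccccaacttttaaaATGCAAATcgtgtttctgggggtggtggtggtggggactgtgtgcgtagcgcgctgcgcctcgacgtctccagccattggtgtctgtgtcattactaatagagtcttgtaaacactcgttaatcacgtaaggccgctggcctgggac
Cdx4: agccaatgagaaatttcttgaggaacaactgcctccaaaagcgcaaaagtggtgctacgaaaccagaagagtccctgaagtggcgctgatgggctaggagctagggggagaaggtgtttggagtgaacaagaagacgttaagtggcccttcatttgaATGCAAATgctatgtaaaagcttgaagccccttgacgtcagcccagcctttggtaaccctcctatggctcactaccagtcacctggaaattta
The octamer lies 147 bases before the start in Cdx2 and 93 bases before it in Cdx4. Searched on both strands, it was in 1.6% of 32851 RefSeq windows of the same length. The octamer was among 7 motifs searched, which were chosen after the sequences had been seen, and a match is a description of letters, not evidence of binding.

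The CCAAT box, known from the factor NF-Y, was in the Cdx2 window at 72 bases before the start and in the Cdx4 window at 248 bases, and in 33.8% of all windows. The CRE core TGACGT, a CREB and ATF site, was in the Cdx4 window, where a match on each strand began 61 and 59 bases before the start and the matches overlapped. It was not in the Cdx2 window, and 6.47% of all windows held it. Neither window held the letters TGANTCA for AP-1 (6.75% of windows), CCGGAA for ETS (12%), ATCAAAG for TCF and LEF (3.21%) or TTTATG for CDX (10.8%). Only these exact letters were searched, so other forms of these sites may be present. The shorter GGAA within the ETS letters stands in both windows, and its share over all windows was not counted. Of the ParaHox neighbours, the Pdx1 window held the CCAAT box at 238 and 74 bases before the start, and the Gsx1 window held none of the 7 motifs.

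The 3 clones kept 1 order for Cdx2 after 2 and 4 h, with clone b highest, then c, then a. Clone a had 4.61 CPM at 4 h, clone b 32.8 CPM and clone c 14.7 CPM. The ratio of 4 h to 2 h was 4.30 (2.83 to 6.74) in clone a, 12.8 (10.1 to 16.4) in clone b and 7.77 (5.81 to 10.6) in clone c, so the interval of clone a lies below that of clone b. Over untreated cells at 4 h, Cdx2 was 74.7 times as high in clone a (20.2 to 624) and 424 times in clone c (75.6 to 16800). In clone b it was at least 275-fold higher, taking 3 counts as the floor for the untreated library with none.

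The mean ERK response had the same order of clones at 4 h, though not each of its genes did. The mean log2 change of 8 known ERK response genes from untreated cells was 1.99, 2.92 and 2.52 at 4 h in clones a, b and c. Spry4, a feedback inhibitor of ERK signalling, stood at 290, 859 and 625 CPM at 4 h in these clones, and Dusp6, an ERK phosphatase, at 257, 350 and 387 CPM, with clone c highest. Reads assigned to Esr1, the oestrogen receptor gene, stood at 18.2, 260 and 39.1 CPM at 4 h, against 9.44, 93.4 and 38.8 CPM untreated, so clone b was already highest there. The part of these clone differences in the Cdx2 counts was not tested.

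Few genes that began near 0 went as far. There were 10626 symbols with at most 10 counts over the 3 untreated libraries, and 4154 of them had a count in any of the 12 libraries. By counts summed over 3 clones, Cdx2 ranked 346 among them at 1 h. At 2 h it ranked 4 with 156 counts, behind Egr3, Ccl20 and Lor. At 4 h it ranked 2 with 1459 counts, behind Ccl20, a chemokine gene with 4113 counts at 4 h and 0 in untreated cells. Clone b held 968 of the 1459 counts, and the rank at 4 h was 2 in each clone by itself and with any 1 clone left out. At 2 h it was 4 in clones a and c and 5 in clone b. Cdx4 ranked 102 at 4 h with 22 counts.

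Cdx1 was already counted in every untreated library and was about 3 times as high at 4 h. Clones a, b and c had 12, 6 and 20 counts untreated, 16, 16 and 27 at 1 h, 24, 11 and 27 at 2 h, and 28, 23 and 54 at 4 h. The levels were 0.434 ± 0.233 CPM in untreated cells, 0.748 ± 0.244 CPM at 1 h, 0.752 ± 0.326 CPM at 2 h and 1.33 ± 0.712 CPM at 4 h (SD, n = 3 clones). As groups, the 1 h and 2 h libraries overlapped the untreated ones, and in CPM the 4 h libraries, at 0.780 to 2.13, lay above the untreated ones, at 0.239 to 0.692.

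Within each clone Cdx1 was above its own untreated library at 1 h, by 1.76, 2.37 and 1.48 times in a, b and c, and at 2 h, by 2.48, 1.58 and 1.39 times. Over the 3 clones these ratios were 1.70 (1.11 to 2.62) and 1.69 (1.11 to 2.60). The ratio of 4 h to untreated for Cdx1 was 2.96 (2.02 to 4.4), and it was 2.90 (1.43 to 6.27), 3.27 (1.29 to 9.81) and 3.08 (1.82 to 5.44) in clones a, b and c, with intervals that overlap. The ratio of 2 h to 1 h was 0.997 (0.686 to 1.45), and that of 4 h to 2 h was 1.75 (1.27 to 2.43). Clone c had the most Cdx1 counts at 4 h and clone b the fewest, while for Cdx2 clone b had the most.

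Cdx4 stayed at 1 to 10 counts per library at every time. Clones a, b and c had 2, 4 and 2 counts untreated, 1, 5 and 5 at 1 h, 7, 3 and 4 at 2 h, and 6, 10 and 6 at 4 h. Its levels were 0.0967 ± 0.0543 CPM in untreated cells, 0.136 ± 0.0826 CPM at 1 h, 0.171 ± 0.0864 CPM at 2 h and 0.269 ± 0.0610 CPM at 4 h (SD, n = 3 clones). A count of 3 was worth 0.0925 to 0.122 CPM in these libraries, so most Cdx4 values were near that floor. The ratio of 4 h to untreated was 2.94 (1.26 to 7.64), and those of 1 h and 2 h to untreated had intervals that included 1.

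In CPM, the 4 h libraries lay above the untreated libraries without overlap for 3 of 3 caudal genes, as they did for 17.9% of the 19425 symbols with any count. Across the 14185 genes tested with edgeR's quasi-likelihood model, 18.0% were called higher and 15.1% lower at 4 h at an adjusted p under 0.05 (Benjamini-Hochberg). At 2 h 9.56% were called higher and 6.64% lower, and at 1 h 0.0775% higher and 0.0% lower. Since the caudal genes were picked with this contrast known, nothing is read from their count. Cdx1 and Cdx2 reached the count filter of that model, Cdx2 through its 2 h and 4 h libraries, and Cdx4 did not. The comparisons with untreated cells share the same 3 untreated libraries.

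Per length of merged exons Cdx2 had the lowest mean of the 3 genes untreated and at 1 h and the highest at 2 and 4 h. At 4 h Cdx2 stood at 7.68 ± 6.33 CPM per kb, Cdx1 at 0.760 ± 0.407 and Cdx4 at 0.137 ± 0.0311. In untreated cells Cdx1 stood at 0.248 ± 0.133 CPM per kb, Cdx4 at 0.0493 ± 0.0277 and Cdx2 at 0.0142 ± 0.0137. At 1 h the order was the same, with Cdx1 at 0.428 ± 0.140 CPM per kb, Cdx4 at 0.0692 ± 0.0421 and Cdx2 at 0.0397 ± 0.0126. The spreads of Cdx4 and Cdx2 in untreated cells overlap, and with 2 or fewer Cdx2 counts per library their order there is not resolved. Nor is it resolved at 1 h, where their spreads overlap too. In clone a at 1 h Cdx2, at 0.0542 CPM per kb, stood above Cdx4, at 0.0208. At 2 h Cdx2, at 0.815 ± 0.331 CPM per kb, was next to Cdx1 at 0.430 ± 0.187, and the clones of both genes overlapped.

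Within each library, Cdx2 made up a larger share of the counts of the 3 genes at 2 and 4 h than untreated. The share was 12.5%, 0% and 4.35% in clones a, b and c untreated, of 16, 10 and 23 caudal counts, and 15.0%, 8.70% and 5.88% at 1 h. At 2 h it was 47.5% (exact binomial 95% interval 34.3 to 60.9) in clone a, 84.3% (75.0 to 91.1) in clone b and 63.1% (51.9 to 73.4) in clone c. At 4 h it was 77.9% (70.5 to 84.2), 96.7% (95.4 to 97.7) and 86.1% (82.4 to 89.2) of 154, 1001 and 431 caudal counts. Clone a kept the lowest Cdx2 share at both of these times and clone b the highest.

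**Figure D2:**
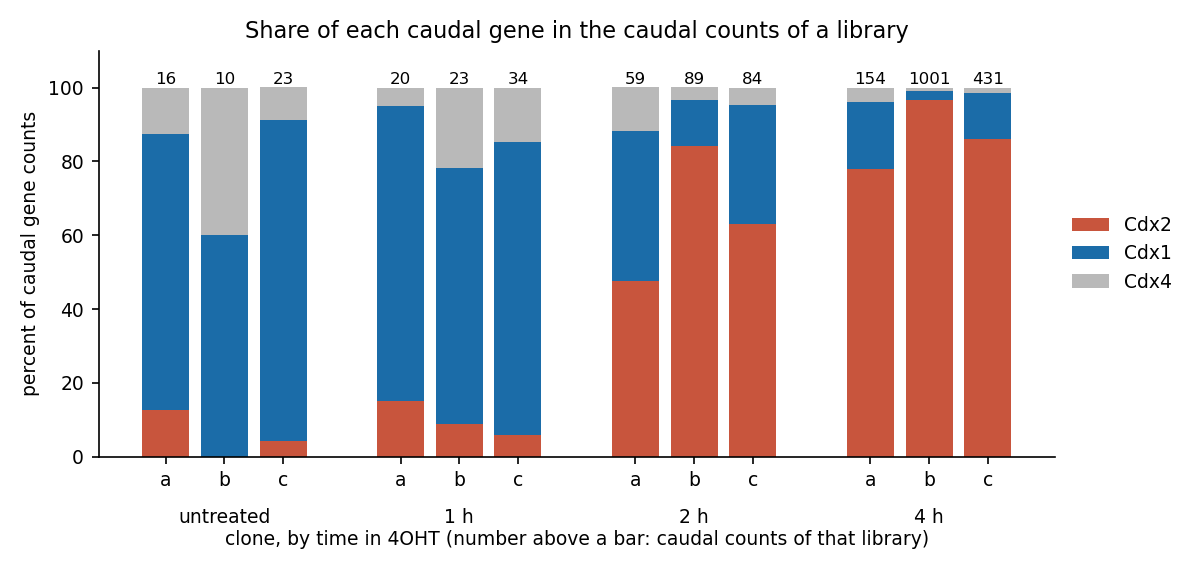
Share of the caudal counts in each library that fell on Cdx2, Cdx1 and Cdx4 (percent), by hours of 4OHT and clone. Cdx2 held 0 to 12.5% untreated and 77.9 to 96.7% at 4 h.

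The position of each gene was taken from GENCODE M21 on GRCm38. Cdx2 lies at chr5:147300805-147307270 on the minus strand, with 2261 bp of merged exons. Cdx4 lies at chrX:103321398-103330592 on the plus strand, with 1963 bp. Cdx1 lies at chr18:61018862-61036199 on the minus strand, with 1750 bp. The exons of the 3 genes overlap no other annotated exon, so reads of an overlapping or antisense gene do not enter these counts by annotation.

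The 10 genes most like Cdx2 in pattern over the 12 libraries were picked by their likeness to it, so a shared time course is not a finding. Likeness was Pearson's r of log2 CPM over 12 libraries that share 3 clones and 4 times, among 11859 genes averaging at least 1 CPM, and it is a description. The highest were Msx1, a homeobox gene of limb and neural crest, and Pum3 (r = 0.994 each). Then came Piwil4 (0.992), Pla2g7 (0.991), Slc4a7, Stom and Nrp2 (0.990 each), Pcdh1 (0.988), Ccl20 (0.987) and Jmjd4 (0.985). With a prior count of 0.5 in place of 2, the 10 closest genes shared 7 with these. Msx1 averaged 0.297, 0.484, 1.81 and 6.93 CPM at 0, 1, 2 and 4 h. Piwil4 exons overlap the antisense gene Gm10706, and no strand setting of the counting is given in the sources used here.

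Cdx1 had another set of companions. The closest were Kirrel (r = 0.974), Etv1, an ETS factor (0.967), Epas1, a hypoxia-inducible factor (0.957), Psmf1 (0.948), Atp6v0a2 (0.938) and Gpc4 (0.937). Adamts4 (0.924), Hipk1 (0.921), Lemd1 (0.919) and Slc9b2 (0.907) followed. Etv1 averaged 15.1, 18.4, 19.4 and 24.1 CPM at 0, 1, 2 and 4 h. Cdx1 and Cdx2 themselves had r = 0.567, which placed Cdx2 at rank 1517 for Cdx1.

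The other ParaHox genes of the Cdx2 cluster also had few counts in untreated cells and more at 4 h. Pdx1, a pancreatic and duodenal factor 25 kb from Cdx2, had 5, 52 and 23 counts at 4 h in clones a, b and c, against 1, 0 and 0 in untreated cells. Gsx1, a neural homeobox gene 110 kb away, had 8, 50 and 32 counts at 4 h, against 2, 0 and 0 in untreated cells. The 4 h to untreated ratio was 85.6 (14.9 to 3420) for Pdx1 and 48.1 (12.9 to 404) for Gsx1. Both fell short of the count filter, and with no filter edgeR gave adjusted p-values of 0.00224 for Pdx1 and 0.000669 for Gsx1 at 4 h, where 13.2% of genes were called higher. In both, as in Cdx2, clone b was highest at 4 h and clone a lowest. Gsx2, which lies outside that cluster, had 3, 4 and 3 counts at 4 h against 13, 18 and 10 in untreated cells, a log2 change of −1.92 ± 0.50 (SE, edgeR adjusted p = 0.0136), and its call was lost without all libraries of clone a or of clone c.

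Around Cdx2, 7 of 10 neighbours (5 protein-coding genes on each side) were tested, and 0, 2 and 4 were called higher at 1, 2 and 4 h, with 0 lower at each time, where 9.56% of all genes tested were higher at 2 h and 18.0% at 4 h. Flt1, a VEGF receptor gene 254 kb away, had 181, 866 and 343 counts at 4 h in clones a, b and c, against 50, 50 and 45 in untreated cells, a log2 change of 3.30 ± 0.47 (edgeR adjusted p = 0.000646). Its 2 h change of 1.82 ± 0.46 (edgeR adjusted p = 0.0265) lost its call without any 1 untreated library or that of clone b or c at 2 h (edgeR adjusted p = 0.067 to 0.109). Polr1d (0.40 ± 0.08), Lnx2 (0.49 ± 0.15) and Pomp (0.27 ± 0.07) also rose at 4 h, and lost their calls when clone b or clone c was left out entirely, Lnx2 also when clone a was. Leaving out clone a or b untreated, or clone c at 4 h, ended the Lnx2 call too, and leaving out clone b or c at 4 h ended that of Pomp. With clone as a block in the model, all 12 libraries gave edgeR adjusted p-values of 0.00227 for Lnx2 and 0.00467 for Pomp at 4 h. The block gave 0.00194 for Flt1 at 2 h. It called 20.6% of all genes tested higher at 2 h and 26.2% at 4 h. The nearest genes were Urad, 7.71 kb away, with 1, 5 and 3 counts at 4 h against 0, 0 and 1 in untreated cells, and Flt3, 23.5 kb away, at 0.45 ± 0.26 (edgeR adjusted p = 0.292). Between Flt3 and Flt1, Pan3 stood at 0.17 ± 0.09 at 4 h (edgeR adjusted p = 0.176).

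**Figure D3:**
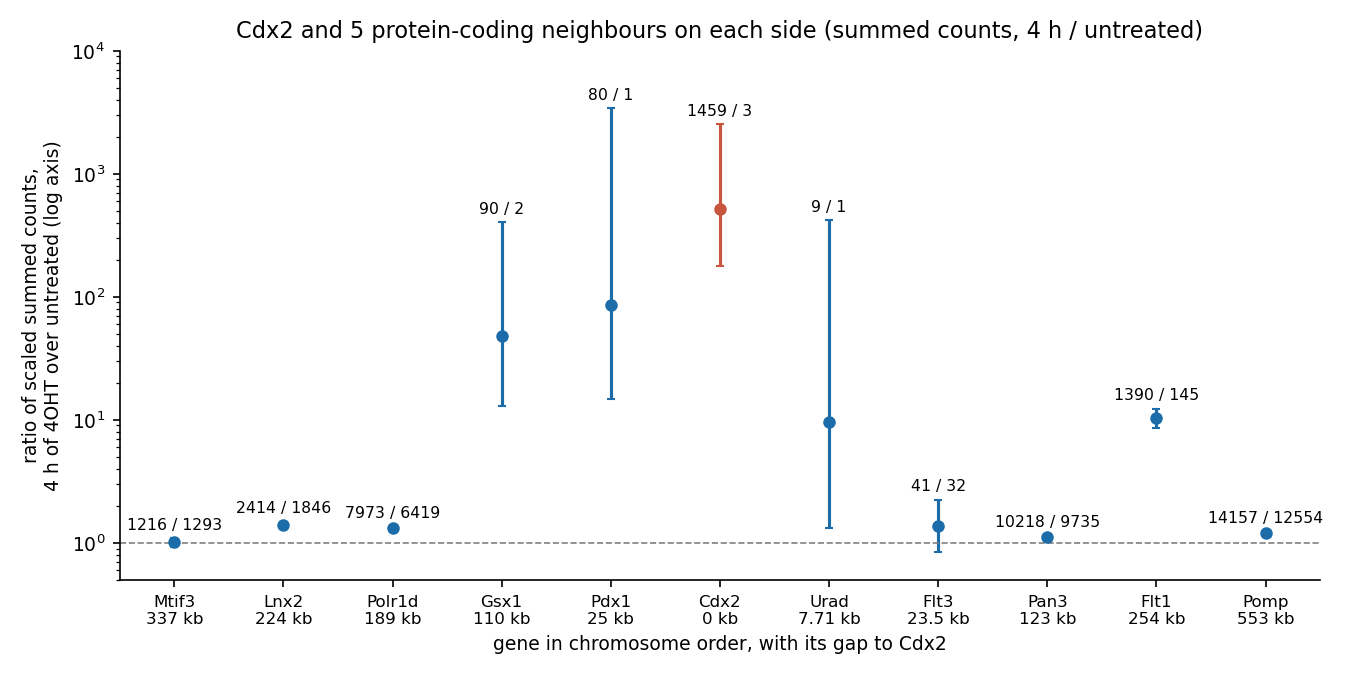
Ratio of scaled summed counts at 4 h over untreated (log axis, with 95% counting intervals) for Cdx2 and 5 protein-coding neighbours on each side in chromosome order, with summed counts at 4 h and untreated above each point. Cdx2 is at 520, Pdx1 at 85.6, Gsx1 at 48.1 and Flt1 at 10.3, while Flt3, which lies between Urad and Pan3, is at 1.37.

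Around Cdx1, 8 of 10 neighbours were tested, with 0, 3 and 3 higher and 0, 0 and 1 lower at 1, 2 and 4 h. Of all genes tested, 0.0775%, 9.56% and 18.0% were called higher at these times, and 0.0%, 6.64% and 15.1% lower. With the clone block 1, 4 and 4 neighbours were higher and 0, 1 and 2 lower. The block called 5.41%, 20.6% and 26.2% of all genes tested higher, and 1.58%, 20.0% and 25.7% lower. Of the neighbours higher at 2 h without the block, Tcof1 lost its call without any of 5 single libraries (edgeR adjusted p = 0.0508 to 0.139). Hmgxb3, whose exons overlap Csf1r, lost its call without clone b or c at 2 h (edgeR adjusted p = 0.0579 to 0.0594). The sulfate transporter gene Slc26a2 (log2 change 3.01 ± 0.37 at 4 h, edgeR adjusted p = 0.0003), the phosphodiesterase gene Pde6a (2.65 ± 0.42, 0.00109) and Tcof1 (0.77 ± 0.13, 0.00149) rose. Pdgfrb, a growth factor receptor gene, fell (−0.96 ± 0.29, edgeR adjusted p = 0.0276), a call lost without any 1 untreated library or that of clone b or c at 4 h (edgeR adjusted p = 0.055 to 0.0755). The nearest neighbour, Slc6a7 at 4.64 kb, was at −0.45 ± 0.44 (edgeR adjusted p = 0.460, and 0.047 with the clone block). Around Cdx4 4 of 10 neighbours were tested and 0 were called at any time, against the 18.0% called higher and 15.1% called lower at 4 h. With the clone block 2 were called at 4 h, where 26.2% of all genes tested were called higher and 25.7% lower. The 2 were Nap1l2, higher (0.68, edgeR adjusted p = 0.028), and Tsx, lower (−1.03, edgeR adjusted p = 0.0169). Exons of Tsx overlap those of Gm26992. The nearest to Cdx4, Chic1, was at 0.26 ± 0.15 (edgeR adjusted p = 0.212).

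Genes of the tissues and pathways in which caudal genes act are given by lists. Each list's edgeR counts stand against 18.0% of all genes tested called higher and 15.1% lower at 4 h, 9.56% and 6.64% at 2 h, and 0.0775% and 0.0% at 1 h. With clone as a block, which the shared clones allow, 26.2% of all genes tested were called higher and 25.7% lower at 4 h, 20.6% and 20.0% at 2 h, and 5.41% and 1.58% at 1 h. The median log2 change of all genes tested was −0.02 at each time. The 39 clustered Hox genes include known CDX targets, but not all are such targets, and none was tested as a target here. Of the 39, 9 were tested for change, and 0 and 0 were called higher and lower at 1 h, 0 and 2 at 2 h, and 4 and 2 at 4 h. The block gave 4 and 2 at 4 h, and the 4 h median was 0.49. The 30 others had too few counts. Hoxa13, the posterior end of its cluster, had 34, 61 and 67 counts at 4 h in clones a, b and c, against 3, 5 and 5 in untreated cells (log2 change 3.69 ± 0.54, edgeR adjusted p = 0.000742). Hoxa10 (2.79 ± 0.54), Hoxd1 (3.29 ± 0.77) and Hoxd13 (2.01 ± 0.41) also rose. Of the C cluster, Hoxc13 fell to 47, 18 and 44 counts at 4 h, against 147, 125 and 206 in untreated cells (−2.01 ± 0.34, edgeR adjusted p = 0.00161), and Hoxc12 fell likewise (−2.01 ± 0.46). Without all libraries of clone c, Hoxc12, Hoxc13, Hoxd1 and Hoxd13 lost their calls, which left 2 Hox genes called at 4 h. Over all genes, 919 were called at 4 h without clone c, against 4691 with all libraries.

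Among 23 posterior streak and axial progenitor genes, 16 were tested, with 0 called at 1 h, 2 higher and 2 lower at 2 h, and 7 higher and 1 lower at 4 h. The block gave 6 higher and 3 lower at 2 h, and 8 and 1 at 4 h. The 4 h median was 0.71. T (Brachyury), the defining factor of the streak, had 46, 34 and 81 counts at 4 h against 17, 10 and 11 in untreated cells (log2 change 2.20 ± 0.39, edgeR adjusted p = 0.00202). Evx1 (3.71 ± 0.41), Cyp26a1, a retinoic acid degrading enzyme (4.79 ± 0.53), Sp5 (2.79 ± 0.42), Eomes (2.34 ± 0.22), Fgf17 (0.83 ± 0.13) and Mesp2 (1.09 ± 0.38) rose too, and Fgf4 fell (−1.39 ± 0.16). Mesp2 passed narrowly (edgeR adjusted p = 0.0473) and lost its call under DESeq2 (adjusted p = 0.117), with no filter (edgeR adjusted p = 0.067), and without any 1 library that was untreated or at 1 h, of clone b at 2 h, or of clone b or c at 4 h (edgeR adjusted p = 0.0581 to 0.198). Fgf17 and Mesp2 lost theirs without all libraries of clone c, which left 6 called, where the calls over all genes went from 4691 to 919. Exons of Evx1 and Eomes overlap antisense genes.

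Of 20 trophoblast genes 14 were tested, with 0 called at 1 h, 1 higher and 2 lower at 2 h, and 4 higher and 1 lower at 4 h. The block gave 4 higher and 3 lower at 2 h, and 7 and 2 at 4 h. The 4 h median was 0.29. Tead4, an upstream factor of trophectoderm, rose by 1.91 ± 0.28, Krt18, a simple epithelial keratin, by 1.92 ± 0.44, and Gata3 by 1.32 ± 0.45, beside Eomes, and Id2 fell (−1.33 ± 0.18). Gata3 lost its call without the 4 h library of clone b (0.61, edgeR adjusted p = 0.269) and without most other libraries. Without all libraries of clone c Krt18 lost it too, which left 3 called, where the calls over all genes went from 4691 to 919. The summed trophoblast level was 438 to 676 CPM at 4 h and 388 to 587 CPM in untreated cells. The placental genes Prl3d1 and Tpbpa were at 0 in untreated cells and Tpbpa also at 4 h, and Elf5, a defining factor of trophoblast stem cells, had 4, 6 and 3 counts at 4 h against 0, 1 and 3. Of 18 intestinal genes 6 were tested, with 0 calls at 1 and 2 h and 1 higher at 4 h, or 3 with the block, and a 4 h median of 0.11. That gene was Cdh17, an intestinal cadherin and known CDX2 target, with 69, 114 and 80 counts at 4 h against 27, 15 and 25 in untreated cells (2.06 ± 0.22, edgeR adjusted p = 0.000162).

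Of 16 Wnt targets and TCF/LEF factors 15 were tested, with 1 higher at 1 h, 3 higher and 2 lower at 2 h, and 5 higher and 2 lower at 4 h, and a 4 h median of 0.09. The block gave 4 higher and 3 lower at 2 h, and 6 and 4 at 4 h. Myc (2.41 ± 0.27), Sp5, Tcf7 (1.26 ± 0.17), Tcf7l2 (1.24 ± 0.28) and Lef1 (1.14 ± 0.35) rose at 4 h, while Axin2, a common readout of Wnt signalling, was at −0.18 ± 0.32 (edgeR adjusted p = 0.698). Tcf7l1 (−0.53 ± 0.10) and Apcdd1 (−0.49 ± 0.15) fell. Exons of Lef1 and Tcf7l1, like those of Gata3, overlap other annotated exons. The calls of Tcf7l2 and Lef1 were lost when clone b or clone c was left out entirely, that of Tcf7l1 when clone c was and that of Apcdd1 in either case. This left 4 of the list called without clone b and 3 without clone c. Over all genes 1913 were called at 4 h without clone b and 919 without clone c, against 4691 with all libraries. Lef1 lost its call without clone a as well. Of 18 retinoic acid genes 15 were tested, with 0 called at 1 h, 1 higher and 1 lower at 2 h, and 4 higher and 2 lower at 4 h, and a 4 h median of 0.11. The block gave 1 higher and 1 lower at 1 h, 1 and 2 at 2 h, and 5 and 3 at 4 h. The receptor gene Rarg (1.68 ± 0.18), the synthesis enzyme gene Aldh1a3 (4.56 ± 0.57), Rxrg (4.12 ± 0.70) and Cyp26a1 rose, and Dhrs3 fell (−1.76 ± 0.28), as did Rdh10 (−0.41 ± 0.12). Without all libraries of clone c, Dhrs3 and Rdh10 lost their calls, which left 4 called, beside the same 919 over all genes. Rdh10 lost its call also without clone b, and when clone a untreated or clone b or c at 4 h was left out (edgeR adjusted p = 0.0619 to 0.0786).

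**Figure D4:**
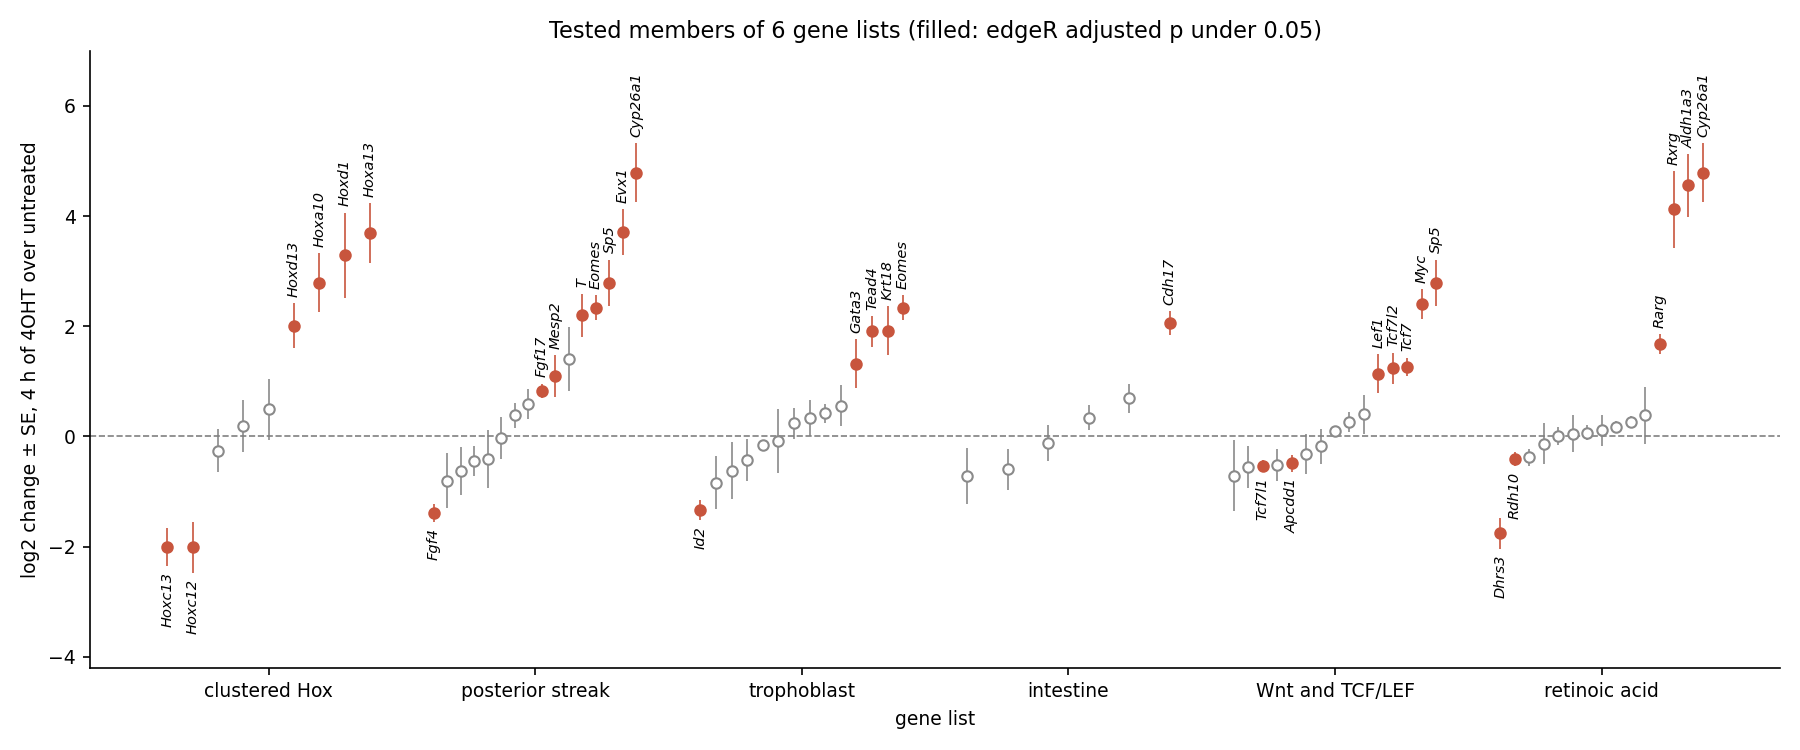
Log2 change at 4 h of 4OHT over untreated (± SE, 3 clones a group) for every tested member of 6 gene lists, with members past an edgeR adjusted p of 0.05 filled and named. The posterior list has 7 members filled above 0 and 1 below, and the intestinal list has Cdh17 alone.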

How the data were processed

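Read counts per gene symbol for 12 libraries (3 clones at 4 times) were used as deposited. Per the submitters' processing notes, the tools named were STAR, featureCounts and DESeq, with the build mm10, while versions, annotation and strand setting were not given in the sources used here. The counts deposited by the authors are raw whole numbers, and 6472 of 25897 symbols were at 0 in every library. Samples were grouped by the time and clone in their labels. One protocol label names only 0 and 2 h, while titles and the design text give all 4 times.

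The caudal genes and all gene lists were chosen with earlier results of these data known, so neither is independent evidence. The 3 caudal genes were described without a test, by counts, CPM scaled by TMM and ratios of summed scaled counts with exact conditional 95% intervals. These cover counting error only, and 3 counts served as the floor for a library at 0. For all other genes, edgeR 4.0.16 (R 4.3.3, limma 3.58.1) was fitted to the 12 libraries by quasi-likelihood with 1 term per group, 8 residual df and a biological coefficient of variation of 0.163. Genes passed filterByExpr with a minimum count of 10 and a minimum total of 15, and p-values were 2-sided and adjusted by Benjamini-Hochberg over 14185 genes, with a threshold of 0.05. The SE of a log2 change was taken as the change over the square root of F. Alternatives were RLE factors, no filter, DESeq2 1.42.0, clone as a block, each library left out and, chosen after seeing the data, each clone left out. The model was tested on simulated counts.

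The clone letter pairs libraries, since each clone is 1 line. Deviations from group means of same-clone libraries correlated at 0.184 to 0.684 in 18 of 18 pairs, and those of different clones at −0.024 at most. Deviations within a group sum to 0, so positive same-clone values push different-clone values below 0, and the latter are not separate evidence of pairing. No libraries of a group agreed within sampling noise (chi-square over df from 18.5 to 103). Whether clones were cultured apart on separate days is not given, so p-values measure the spread between these clones.

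Named were the 3 caudal genes, their 5 protein-coding neighbours on each side, the 10 genes most like Cdx1 or Cdx2, and up to 4 members per list by smallest adjusted p at each time. The other list members named, among them T, Hoxc12, Hoxd1, Mesp2, Fgf17, Gata3, Elf5, Lef1, Tcf7l2, Apcdd1, Rxrg, Rdh10 and Axin2, were chosen after their values were seen. One gene of the retinoic acid list is not reported here, and that list's counts leave it out. Promoter windows are from RefSeq (GRCm38.p6) and positions from GENCODE M21 (GRCm38), counted from 1.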

Additional observations from a re-analysis of the deposited data

How the results depend on the processing

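The caudal mean levels stayed within 1 SD of the 3 clones under RLE factors and total counts. Leaving out 1 of 3 clones cannot move a mean by 1 SD, so for the leave-outs the levels themselves are given. Moves of over 1.5 times were seen for Cdx2 at 4 h without clone b (9.64 CPM, against 17.4 CPM with all) and untreated without clone a (0.0173 CPM, against 0.0321 CPM). Of 61 single-gene results, 20 kept their call under every setting and none reversed. Under the replicate block 61 kept it. With all libraries of clone c left out, a setting chosen after seeing the data, 20 kept it and 41 were weaker. Genes called numbered 11, 2298 and 4691 at 1, 2 and 4 h. With the replicate block, in which clone pairs the libraries, they numbered 992, 5754 and 7374, and under DESeq2 128, 3203 and 5026. The list counts below under these settings stand beside these totals. With single libraries or clones left out the genes called ranged over 0 to 26, 1 to 3248 and 919 to 5559. Under DESeq2 the posterior list had 1 and 7 called at 1 and 2 h (0 and 4 in edgeR), the trophoblast list 1 and 5 (0 and 3) and the intestinal list 2 at 4 h (1). Under the replicate block the posterior list had 2 and 9 called at 1 and 2 h, the trophoblast list 1, 7 and 9 at 1, 2 and 4 h (0, 3 and 5), the intestinal list 1, 1 and 3, and the retinoic acid list 2 at 1 h. With no filter on low counts 10 Hox genes were called at 4 h (6) and 2 intestinal genes, where 4425 of 19425 genes tested were called. The Hox genes added were in both directions, and none had reached the count filter. Hoxd10 was higher (2.25, edgeR adjusted p = 0.0381). Hoxb13 (−4.57, edgeR adjusted p = 0.0234), Hoxc5 (−3.29, 0.0402) and Hoxc11 (−5.17, 0.0284) were lower. Over the leave-outs the Hox count ranged over 0 to 3 at 2 h and 2 to 7 at 4 h, the posterior count over 0 to 7 at 2 h, and the trophoblast count over 0 to 5 at 2 h and 3 to 7 at 4 h. The intestinal count ranged over 1 to 3 at 4 h, the retinoic acid count over 0 to 3 at 2 h, and the Wnt count over 0 to 1, 0 to 5 and 3 to 8 at 1, 2 and 4 h. The cause of these moves was not tested. Depth limits Cdx4 and the untreated Cdx2 level, where 1 count is 0.0308 to 0.0408 CPM. At an unadjusted p under 0.05, edgeR had 1630, 4899 and 6271 genes at 1, 2 and 4 h.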
